A study of Mus musculus with 1279 samples.

Results

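The basement membrane genes described here are 32 genes that encode the chains and associated proteins of basement membranes: 6 collagen IV chains, 10 laminin chains, 2 nidogens, the proteoglycans and proteoglycan-like collagens Hspg2, Agrn, Col15a1 and Col18a1, and 10 further proteins of this matrix. The list was set by gene name, with earlier results of these data known, and all 32 were found among the 46517 mouse genes of the count table.

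Basement membranes are thin sheets of extracellular matrix that underlie epithelia and endothelia and wrap muscle cells, pericytes and Schwann cells. Laminins, each a trimer of an alpha, a beta and a gamma chain, polymerise on the cell surface through integrins and dystroglycan, and collagen IV trimers form a separate covalently linked network. Nidogens and the heparan sulfate proteoglycan perlecan (encoded by Hspg2) connect both networks. In the heart, sheets of this kind surround every cardiomyocyte, smooth muscle cell and pericyte and line the capillaries, and fibroblasts are known to deposit part of their chains.

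Single mesenchymal cells were sorted from the hearts of male mice aged 10 to 20 weeks and profiled with Smart-seq2, which amplifies full-length cDNA from 1 cell. The table holds 1279 cells in 8 clusters, which the labels assign. Clusters 1 to 5 (926 cells) are fibroblasts by the study's account, with cluster 1 standing for probable valve interstitial cells, and clusters 6 to 8 (353 cells) were taken here as mural cells: cluster 6 as smooth muscle cells of large vessels, cluster 7 as vascular smooth muscle cells and cluster 8 as pericytes. The cells come from 4 strains, and counts were summed per strain and cluster group, so that a strain and not a cell is the replicate.

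In the C57BL6 strain (581 cells on 3 plates), no reporter is named and cells were sorted with antibodies to PDGFRα or PDGFRβ. PdgfrbGFP cells (364 cells) carry a reporter for Pdgfrb, Cspg4dsRED cells a reporter for Cspg4 and Acta2GFP cells a reporter for Acta2, with 1 plate each. No group received a treatment, and CD31+ cells were left out of each sort. Elastase was added to the dissociation of the Acta2GFP hearts. The labels name no animal, so in a difference between strains the parts of strain, sort, plate, animal and elastase cannot be told apart. A spread over strains contains all of them. The mix of mural cells differed between strains: clusters 6, 7 and 8 gave 3, 1 and 33 cells in C57BL6, 33, 75 and 29 in Cspg4dsRED, and 3, 33 and 15 in Acta2GFP, while PdgfrbGFP gave 0 cells to cluster 6, 9 to cluster 7 and the rest of its mural cells to cluster 8. Values per strain are given below in the order C57BL6, PdgfrbGFP, Cspg4dsRED and Acta2GFP, in CPM, a gene's counts scaled to the total of the summed library.

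A cell held 46268 to 1302397 counts (median 274504) and 1626 to 9383 detected genes (median 4045). Median depth was lowest in cluster 8, at 167874 counts, and highest in cluster 4, at 349816. The summed fibroblast markers (5 genes) reached 11029.6 to 13273 CPM in the fibroblast sums of the 4 strains and 1141 to 2891 CPM in the mural sums. The mural markers (4 genes) reached 64.7 to 234.1 CPM in the former and 5035 to 11086 CPM in the latter, the smooth muscle markers (4 genes) 55.7 to 655 CPM and 1631 to 12264 CPM, and the pericyte markers (3 genes) 89.3 to 268.3 CPM and 3043 to 17515 CPM. Endothelial markers (7 genes, none at 0) summed to 22.3 to 236.4 CPM in fibroblasts and 3.36 to 62.7 CPM in mural cells, and cardiomyocyte markers (7 genes, none at 0) to 15.7 to 77.7 CPM and 133.5 to 260.3 CPM. Immune markers (5 genes, 1 at 0 on each side) summed to 1.40 to 29.8 CPM and 0.0488 to 23.3 CPM, Schwann cell markers (4 genes, 1 at 0 in mural cells) to 22.5 to 68.5 CPM and 0.243 to 5.397 CPM, and mesothelial markers (5 genes, 3 at 0 on each side) to under 1 CPM. The part of cardiomyocyte RNA in the mural values and of endothelial or Schwann cell RNA in the fibroblast values was not tested. Cluster 6 carried smooth muscle markers at a mean of 11449 CPM and also fibroblast markers at 6297 CPM, and the valve markers (4 genes) averaged 6575 CPM in cluster 1, against a mean of 346 CPM over clusters 2 to 5.

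The 6 collagen IV genes lie as 3 head-to-head pairs, in which the partners are transcribed away from each other. Sequence from next to their starts is shown because the genes differed in where they were expressed. Col4a1 and Col4a2 were highest in cluster 2 and Col4a5 and Col4a6 in cluster 6. The partners Col4a4 and Col4a3 were highest in cluster 2 and cluster 4. The annotated starts of Col4a1 (minus strand) and Col4a2 (plus strand) on chromosome 8 overlap, and 22 exonic bases are shared. Those of Col4a4 (minus strand) and Col4a3 (plus strand) on chromosome 1 lie 72 bases apart, and those of Col4a6 (minus strand) and Col4a5 (plus strand) on the X chromosome 1309 bases apart. The sequences are from RefSeq, build GRCm38.p6, with matches on either strand to CCAAT or GGGCGG in capitals. The first is the window around the match upstream of Col4a2, at chr8:11312761-11312790 on the plus strand, which lies within the span of Col4a1. The second is the whole stretch between Col4a4 and Col4a3, at chr1:82586850-82586920 on the minus strand, which holds neither motif. The third and the fourth are parts of the stretch between Col4a6 and Col4a5, directly upstream of Col4a5, at chrX:141475169-141475384 on the plus strand, and of Col4a6, at chrX:141474077-141474326 on the minus strand. The RefSeq promoter windows of Col4a2 and Col4a5 also hold GGGCGG matches that lie outside the bases shown.
Col4a2 upstream: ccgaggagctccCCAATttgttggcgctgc
Col4a4 to Col4a3: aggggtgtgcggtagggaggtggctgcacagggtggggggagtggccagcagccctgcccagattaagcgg
Col4a5 upstream: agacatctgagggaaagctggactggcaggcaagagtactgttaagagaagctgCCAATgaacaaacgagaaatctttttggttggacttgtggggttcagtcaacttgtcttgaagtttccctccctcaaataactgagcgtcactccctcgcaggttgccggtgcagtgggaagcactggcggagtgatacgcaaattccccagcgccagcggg
Col4a6 upstream: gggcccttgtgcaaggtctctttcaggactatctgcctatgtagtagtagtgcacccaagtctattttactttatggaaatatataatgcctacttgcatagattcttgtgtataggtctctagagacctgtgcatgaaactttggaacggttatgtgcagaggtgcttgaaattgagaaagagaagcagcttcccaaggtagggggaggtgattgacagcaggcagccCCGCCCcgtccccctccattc

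The RefSeq promoter table, with 250 bases before and 50 after each start, held 24 of the 32 genes. Of these 24 promoters, 11 held CCAAT and 15 held GGGCGG on either strand, which are the core letters of the boxes bound by NF-Y and Sp factors. Over all 27025 promoters of the table the shares were 37.9% and 35.9%. TATAAA stood in 0 of the 24 promoters and in 14.2% of all, and the CArG box, the motif read by serum response factor, in 1 (Lama2) and in 1.57% of all. The median GC content was 63.3% in the 24 promoters and 52.7% in all. The windows of Col4a1 and Col4a2 overlap and can hold the same match. These letter matches are a description of the windows and not of bound sites.

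The genes as a group were expressed in both lineages and differed between clusters. Their summed level averaged 8347 ± 1702 CPM (SD, n = 4 strains) in cluster 2, the highest of the 8 clusters. Clusters 6, 5, 4, 8, 3 and 7 followed, with means of 5508, 5190, 4848, 4614, 3724 and 3039 CPM. Cluster 1 had the lowest sum, 1326 ± 351 CPM. Over whole sides, the sum was 5525 ± 921 CPM for fibroblasts and 4059 ± 733 CPM for mural cells (SD, n = 4), and the strain ranges of 4204 to 6316 CPM and 2960 to 4451 CPM overlapped. Of the 25 genes that reached a mean of 10 CPM in at least 1 cluster, 12 were highest in cluster 2, 5 in cluster 6 and 3 in cluster 7, while 10 were lowest in cluster 7 and 6 in cluster 1.

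**Figure D1:**
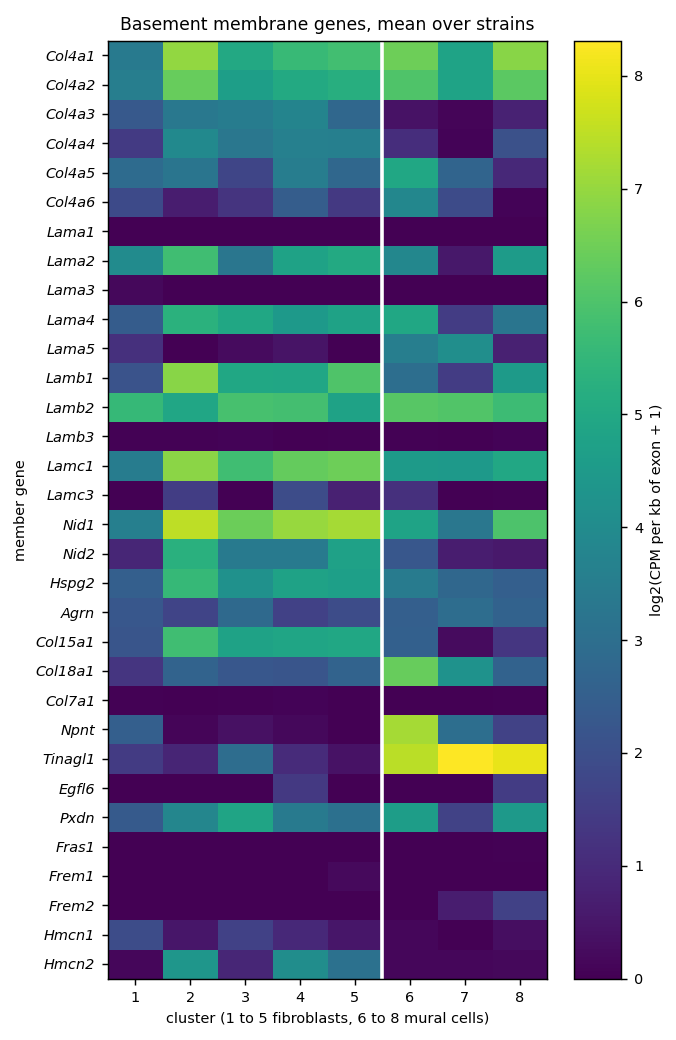
Mean level of each of the 32 genes (rows) in each cluster (columns, 1 to 5 fibroblasts and 6 to 8 mural cells), as the colour of the log2 scale in the key, averaged over strains with at least 3 cells. The column of cluster 2 holds the highest value of 12 of the 25 genes that reach 10 CPM, cluster 1 is low for most chains, and Npnt stands out in cluster 6 at 726 CPM.

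The first comparison asked which of these genes separated fibroblasts from mural cells. Between the sums of 4 strains on each side, 9 genes were higher in fibroblasts and 1 was higher in mural cells by edgeR's quasi-likelihood test (adjusted p under 0.05, Benjamini-Hochberg over all 15117 genes tested). Of all genes tested, 3.47% were called higher in fibroblasts and 2.45% lower. The other 14 tested genes were not called, and Lama1, Lama3, Lamb3, Col7a1, Egfl6, Fras1, Frem1 and Frem2 were too low to be tested. The median log2 fold change of the 24 tested genes was 1.49, against −0.02 over all genes tested. DESeq2 called 15 of the 24, with 13.2% of all its genes called in either direction, and those it added were Col4a4, Lama4 and Hmcn1 as higher in fibroblasts and Lama5 and Npnt as lower. The strain values did not overlap between the sides for 14 of the 24 genes. Fibroblasts were the higher side for 12 of these and mural cells for 2, against shares of 9.06% and 5.63% of all genes tested. The clusters were themselves made from these cells' expression, so p-values here describe how repeatable a difference was over strains and are not independent evidence for the clusters.

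**Figure D2:**
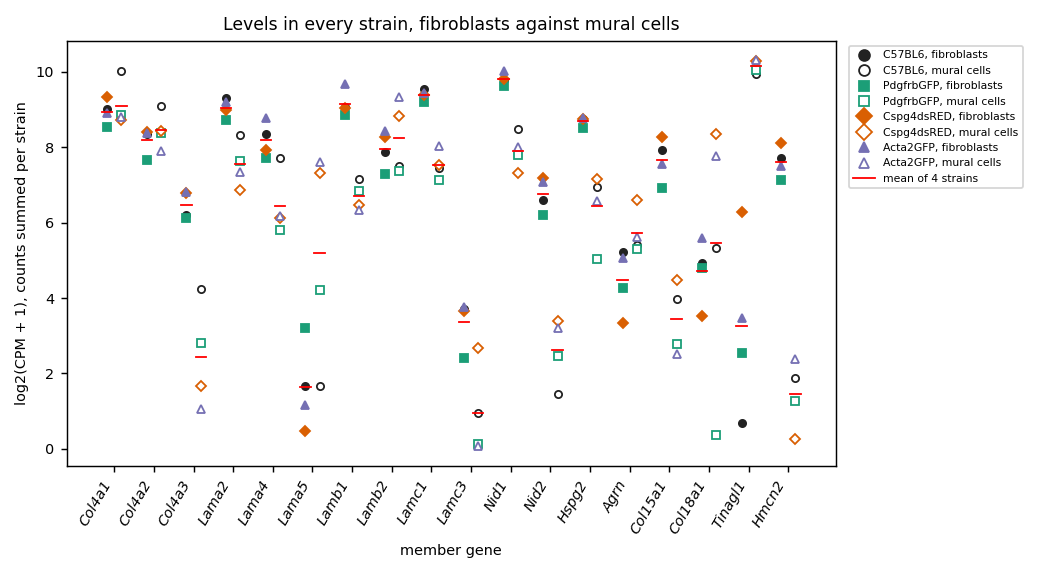
Level of the genes described strain by strain (horizontal axis), as log2(CPM + 1) of counts summed per strain (vertical axis), for fibroblasts and mural cells in each of the 4 strains. Nid2, Col15a1, Hmcn2, Lamb1 and Lamc1 are higher in all fibroblast sums than in any mural sum, Tinagl1 shows the opposite order, and Col4a1 and Col4a2 are mixed.

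Collagen IV was dominated on both sides by the Col4a1 and Col4a2 chains, which form the trimer found in nearly all basement membranes. Col4a1 stood at 514, 368, 645 and 484 CPM in fibroblasts and at 1032, 465, 424 and 443 CPM in mural cells. The sides overlapped, and the C57BL6 mural sum was the highest of the 8. Col4a2 stood at 327, 200.9, 337 and 331 CPM and at 549, 334, 343 and 237.1 CPM, again with overlap. The log2 fold changes, fibroblasts over mural cells, were −0.26 ± 0.33 (SE) for Col4a1 and −0.32 ± 0.30 for Col4a2, with edgeR adjusted p = 0.807 and 0.706. Per kb of exon, the ratio of Col4a1 to Col4a2 was 1.30 to 1.70 in the fibroblast sums and 1.10 to 1.67 in the mural sums, and over the 27 sums of single clusters it ran from 0.075 to 2.27 with a median of 1.31.

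Col4a3 and Col4a4 encode chains of the network best known from kidney glomeruli and lung alveoli. Col4a3 reached 72.1, 68.9, 109.9 and 111.5 CPM in fibroblasts but 17.95, 5.98, 2.18 and 1.07 CPM in mural cells, with no overlap. It was 13.2-fold higher in fibroblasts, with a log2 fold change of 3.72 ± 0.82 and edgeR adjusted p = 0.0248. With strain as a replicate block the log2 fold change was 4.46 and the adjusted p 0.0531, without C57BL6 they were 4.88 and 0.0215, and the adjusted p was 0.0758, 0.0981 and 0.118 without Acta2GFP, Cspg4dsRED and PdgfrbGFP. Col4a4 ranged from 78.5 to 198.2 CPM in fibroblasts and from 1.02 to 26.9 CPM in mural cells, also without overlap, but did not pass the test (2.80 ± 0.77, edgeR adjusted p = 0.0648). The 2 genes were also counted cell by cell. With each cell thinned to 50000 counts (2 shallower mural cells left out), both genes were found in 14.04% of the 926 fibroblasts, where the product of the shares with each gene was 9.33%. In the 351 mural cells the product was 0.487% and 0 cells held both, so that number is not read further. Without thinning, 250 of 926 fibroblasts and 13 of 353 mural cells held both. Of the exonic bases of Col4a3, 5.65% overlap an antisense transcript, and the strand setting of the counting is not given in the sources used here.

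Col4a5 and Col4a6 encode chains that join in the basement membranes of smooth muscle and skin. Between fibroblasts and mural cells the difference was smaller than the spread between strains, at 56.8 ± 25.3 against 39.96 ± 49.2 CPM for Col4a5 and 18.6 ± 13.1 against 30.2 ± 51.04 CPM for Col4a6 (SD, n = 4), with edgeR adjusted p = 0.904 and 0.893. Among clusters both were highest in cluster 6, where Col4a5 stood at 9.80 CPM in C57BL6, 190.98 in Cspg4dsRED and 409 in Acta2GFP. Col4a6 stood at 0 CPM in C57BL6, 265.4 in Cspg4dsRED and 53.4 in Acta2GFP. The 2 strains that gave 3 cells each to cluster 6 are thus at opposite ends for Col4a5. In single cells thinned to 50000 counts, both were detected together in 28 of the 39 cluster 6 cells (33 of them from Cspg4dsRED), a share of 71.8% where the product of the shares with each gene was 63.2%. Both were found in 1 cell of cluster 7 and in 0 cells of cluster 8, where the products were 3.85% and 0.087%, and these low numbers are not read further. The unthinned numbers were 30, 10 and 0 cells. In fibroblasts, 45 of 926 thinned cells held both, a share of 4.86% where the product was 2.11%, and 77 cells did without thinning.

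**Figure D3:**
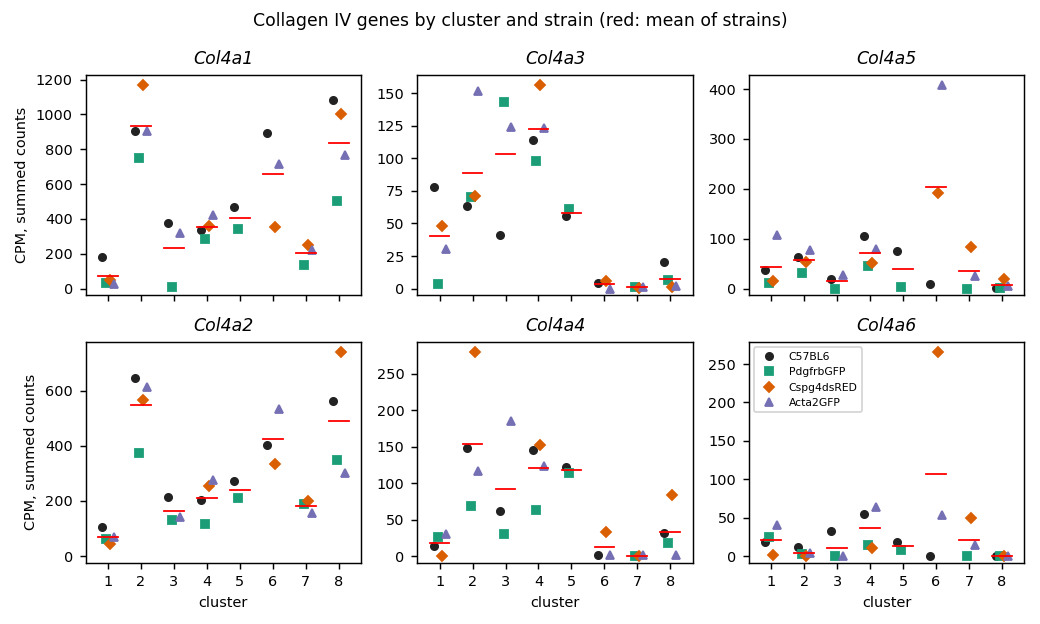
Level of each collagen IV gene (6 panels, vertical axes in CPM of summed counts) by cluster (horizontal axis), with 1 point per strain of at least 3 cells and the mean of strains as a red line. Col4a1 and Col4a2 peak in cluster 2 and are lowest in cluster 1, Col4a3 and Col4a4 stay near 0 in cluster 7, and Col4a5 and Col4a6 peak in cluster 6 with a wide spread.

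Of the laminin alpha chains, which carry the receptor-binding end of the trimer, Lama2 passed the test between the sides. Lama2 (chr10:26980036-27619758, minus strand, GRCm38), the alpha chain of muscle basement membranes whose loss causes a congenital muscular dystrophy, stood at 628, 418, 506 and 593 CPM in fibroblasts and at 323, 199.6, 115.2 and 160.4 CPM in mural cells. Every fibroblast sum exceeded every mural sum, with a log2 fold change of 1.40 ± 0.34 (2.64-fold) and edgeR adjusted p = 0.0369. The call was lost on leaving out any of the 4 strains, at 0.186 without Acta2GFP, 0.0542 without C57BL6, 0.107 without Cspg4dsRED and 0.133 without PdgfrbGFP, and also with DESeq2's size factors (0.0549) and without a filter on low counts (0.0648). Lama4, a chain of vessel walls, stood at 328, 209.9, 244.5 and 436 CPM and 209.9, 54.95, 68.2 and 71.6 CPM. The highest mural value, in C57BL6, nearly met the lowest fibroblast value, in PdgfrbGFP. It did not pass the test (1.58 ± 0.45, edgeR adjusted p = 0.0719), but did with strain as a replicate block (0.0447).

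Lama5, a chain of mature vessel and epithelial membranes, showed the opposite order of levels without passing the test. It was at 2.19, 8.17, 0.379 and 1.26 CPM in fibroblasts and at 2.20, 17.4, 159.1 and 196.1 CPM in mural cells. The 2 high mural values came from Cspg4dsRED and Acta2GFP, the strains with many cluster 7 cells, and in C57BL6 the 2 sides were nearly equal. The log2 fold change was −4.85 ± 1.38 with edgeR adjusted p = 0.0727, and 0.392 with strain as a replicate block. Lama1 had 1 count in 1 cell of the whole table and Lama3, an epithelial chain, 79 counts in 10 cells.

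Both laminin beta chains were abundant. Lamb1 (chr12:31265234-31329644, plus strand) stood at 533, 462, 522 and 820.2 CPM in fibroblasts and at 141.995, 113.9, 87.1 and 79.4 CPM in mural cells, so that every fibroblast sum was well above every mural sum. Its log2 fold change was 2.44 ± 0.30 (5.41-fold, edgeR adjusted p = 0.00139), and the call held without each strain in turn. Lamb2, the beta chain of smooth muscle, synapse and kidney membranes, stood at 232.1, 155.9, 309 and 342 CPM and 179.2, 166.1, 457 and 641 CPM. The sides overlapped, and the high mural values were again those of Cspg4dsRED and Acta2GFP (−0.48 ± 0.44, edgeR adjusted p = 0.686). Lamb3, an epithelial chain, was detected in 28 cells.

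Lamc1 (chr1:153218922-153332786, minus strand), the gamma chain shared by most laminins, was higher in fibroblasts. It stood at 745, 589, 663 and 689.7 CPM against 174.7, 140.5, 183.2 and 261.8 CPM, with no overlap and little spread within fibroblasts. The log2 fold change was 1.81 ± 0.25 (3.51-fold, edgeR adjusted p = 0.00248) and the call held without each strain. Lamc3 was rare, with 3228 counts in 66 cells. It stood at 11.98, 4.28, 11.6 and 12.5 CPM and 0.927, 0.0972, 5.34 and 0.0488 CPM, where 3 of the 4 mural sums were under 1 CPM (2.65 ± 1.37, edgeR adjusted p = 0.384). An antisense transcript overlaps 6.27% of its exonic bases.

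The mix of laminin chains, taken as each chain's share of its family's summed CPM per kb, differed between clusters. Lama2 made up 70.7% ± 11.4 of the alpha chain sum in cluster 8 (SD, n = 4 strains) and 4.12% ± 4.07 in cluster 7 (n = 3), with ranges of 57.4% to 85.04% and 1.45% to 8.81%. In cluster 7 the Lama5 share ranged from 0.903% to 96.9%, the lowest being PdgfrbGFP with 9 cells and Lama4 at 90.3%. In clusters 2, 4 and 5, Lama2 and Lama4 shared the sum, with Lama2 at 59.99% ± 8.52, 55.7% ± 3.19 and 55.3% ± 2.52 and Lama5 at no more than 1.87% in any strain. In cluster 3 Lama4 averaged 73.3% and Lama2 26.2%, with a Lama2 range of 1.11% to 60.7% over 3 strains. Among the beta chains, Lamb1 made up 81.1% ± 7.72 in cluster 2 and 71.1% ± 5.04 in cluster 5, but 6.97% ± 9.39 in cluster 1, 10.3% ± 16.8 in cluster 6 and 2.70% ± 1.86 in cluster 7, where Lamb2 made up nearly all the rest.

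**Figure D4:**
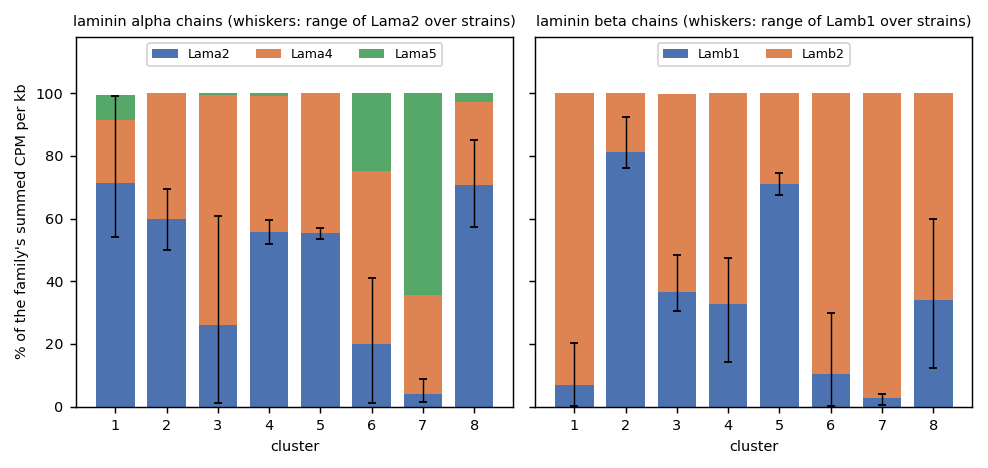
Share of each laminin alpha chain (left) and beta chain (right) in the family's summed CPM per kb (vertical axis, percent) by cluster (horizontal axis), as stacked means over strains, with whiskers for the range of Lama2 and of Lamb1 over strains. Lama2 is at 70.7% in cluster 8 and at 4.12% in cluster 7, and Lamb1 ranges from 2.70% in cluster 7 to 81.1% in cluster 2.

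Nidogens, which link laminin to collagen IV, were both higher in fibroblasts. Nid1 (chr13:13437551-13512269, plus strand) stood at 889, 788, 906 and 1043 CPM in fibroblasts and at 359, 221.8, 159.3 and 257.7 CPM in mural cells (1.84 ± 0.29, 3.58-fold, edgeR adjusted p = 0.00476). Nid2 (chr14:19751265-19811787, plus strand) stood at 96.6, 72.6, 145.6 and 133.3 CPM and at 1.74, 4.47, 9.55 and 8.19 CPM (4.19 ± 0.56, 18.3-fold, edgeR adjusted p = 0.00199). Neither pair of sides overlapped, and both calls held without each strain. The log2 fold change of Nid2 was 5.16 without clusters 1 and 6. Nid1 was the more abundant nidogen on both sides, at 130.5 against 21.7 CPM per kb in fibroblasts and 35.9 against 1.16 CPM per kb in mural cells. Of the exonic bases of Nid2, 8.45% overlap Rtraf on the other strand, so reads from there cannot be assigned with certainty.

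Among the proteoglycans, Hspg2 (perlecan, chr4:137468769-137570630, plus strand) was higher in fibroblasts. It stood at 428, 362, 428 and 439 CPM in fibroblasts and at 122.9, 32.1, 141.4 and 93.9 CPM in mural cells, with no overlap. The log2 fold change was 2.09 ± 0.39 (4.26-fold, edgeR adjusted p = 0.0114), and the adjusted p rose to 0.0751 without Acta2GFP and 0.0614 without C57BL6. Agrn (agrin, known from the neuromuscular junction) stood at 36.3, 18.3, 9.19 and 32.2 CPM and 41.8, 38.5, 96.3 and 48.4 CPM. All mural values lay above all fibroblast values, the closest being 38.5 and 36.3 CPM, but the gene did not pass the test (−1.23 ± 0.53, edgeR adjusted p = 0.273).

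Col15a1 and Col18a1 encode the related multiplexin collagens, whose last domains are released as restin and endostatin. Col15a1 (chr4:47208161-47313167, plus strand) stood at 242.3, 120.5, 307 and 186.3 CPM in fibroblasts and at 14.6, 5.83, 21.4 and 4.68 CPM in mural cells. The sides were far apart (4.19 ± 0.55, 18.2-fold, edgeR adjusted p = 0.00187), also without each strain, and the log2 fold change was 5.06 without clusters 1 and 6. Col18a1 stood at 29.7, 26.9, 10.4 and 46.9 CPM and at 39.3, 0.291, 327 and 215.3 CPM. The mural values spread from near 0 in PdgfrbGFP to the highest of all sums in Cspg4dsRED, and the gene did not pass the test (−2.32 ± 1.23, edgeR adjusted p = 0.401).

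Tinagl1 (chr4:130164454-130175122, minus strand), a secreted glycoprotein of the matrix, was the gene called higher in mural cells. It stood at 0.621, 4.83, 77.2 and 10.1 CPM in fibroblasts and at 978, 1060.1, 1247 and 1273 CPM in mural cells. The mural sums were even over strains, while the fibroblast sums differed, with the highest in Cspg4dsRED, which gave 26 fibroblasts. The log2 fold change was −5.70 ± 1.21 (52.1-fold higher in mural cells, edgeR adjusted p = 0.0211), and the adjusted p was 0.109 and 0.0944 without Acta2GFP and PdgfrbGFP. The size of the difference depended on Cspg4dsRED, with a log2 fold change of −7.83 without that strain, −7.37 with strain as a replicate block and −6.92 on CPM averaged over cells. Per kb, its mural mean of 261.5 CPM was above that of Col4a1 (79.2) and Lamc1 (22.98).

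Hmcn2 (chr2:31314415-31460738, plus strand), a hemicentin, which is a very large matrix protein with immunoglobulin domains, had the widest separation in the other direction. It stood at 209.7, 138.4, 275.5 and 182.2 CPM in fibroblasts and at 2.66, 1.41, 0.198 and 4.19 CPM in mural cells (6.57 ± 0.82, 95.2-fold, edgeR adjusted p = 0.00139), and the call held without each strain. The log2 fold change was 7.24 without Acta2GFP, 5.96 without Cspg4dsRED and 5.98 on CPM averaged over cells. Hmcn2 could be tested through fibroblasts, and at mural levels this low its fold has no firm size. Its relative Hmcn1, with 4070 counts, was at 8.28 to 43.9 CPM and 0.243 to 6.63 CPM and did not pass the test (edgeR adjusted p = 0.158). Npnt (nephronectin, a ligand of the integrin encoded by Itga8) ranged from 0.379 to 9.14 CPM in fibroblasts and from 0.534 to 249.4 CPM in mural cells (edgeR adjusted p = 0.0879). Pxdn, the peroxidase that cross-links collagen IV, was at 110.1 ± 46.4 and 112.8 ± 86.7 CPM (SD, n = 4, edgeR adjusted p = 0.983).

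The remaining genes were detected in few cells. Col7a1, the anchoring fibril collagen, was detected in 9 cells, Egfl6 in 22 cells, and the Fraser complex genes Fras1, Frem1 and Frem2 in 3, 19 and 28 cells. Frem2 was highest in cluster 8, at a mean of 27.2 CPM, and 82.9 CPM in its highest strain sum. Between fibroblasts and mural cells Frem2 was called only without a filter on low counts and without C57BL6, on counts from few cells. No cluster mean of Lama1, Lamb3, Col7a1 or Fras1 reached 1 CPM.

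The second comparison set cluster 1, which expresses the valve markers, against the other fibroblasts. Here 7 of the 24 tested genes were lower in cluster 1 by edgeR (0.773% of all 13201 genes tested were called lower) and 0 were higher (0.561% of all). Among the 7, Lamc3 had almost no counts in cluster 1 and Hmcn2 had few. Both passed the filter on low counts through clusters 2 to 5, so their calls add nothing to the others. The median log2 fold change of the 24 genes was −1.95, against −0.03 over all genes. DESeq2 called 14 of the 24 genes, with 5.3% of its genes called in either direction. For 13 of the 24 genes the strain values did not overlap, with cluster 1 the lower in each (6.76% of all genes tested) and the higher in 0 (2.61%). The cluster 1 sums are small, with 19, 22, 3 and 26 cells in strain order, and cardiomyocyte markers summed to a mean of 150.4 CPM there, against 44.1 CPM over clusters 2 to 5. The pericyte markers (3 genes) summed to 144.7 to 829 CPM in cluster 1, above the 86.1 to 132.8 CPM of the other fibroblasts in every strain, and the mural markers (4 genes) to 98.4 to 656 CPM against 63.1 to 115.9 CPM, with overlap. The part of RNA from such cells in the result was not tested.

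Nid1 had the smallest p-value of these genes here. It stood at 65.7, 70.1, 45.7 and 122.4 CPM in cluster 1 and at 919, 878, 978 and 1300.1 CPM in clusters 2 to 5 (−3.72 ± 0.35, 13.2-fold lower, edgeR adjusted p = 0.000812). Hmcn2 was close to its mural level, at 1.014, 1.11, 0 and 4.15 CPM against 217.4, 155.6, 298 and 232.03 CPM (−6.90 ± 0.73, edgeR adjusted p = 0.00123). Both calls held without each strain in turn, with a log2 fold change of −7.87 for Hmcn2 without Acta2GFP. Hmcn2 had 6, 9, 0 and 44 counts in the cluster 1 sums and could be tested through clusters 2 to 5. Its call is therefore not read as support, and its log2 fold changes here have no firm size. Col15a1 stood at 37.4, 18.6, 22.2 and 13.7 CPM against 249.9, 133.3, 331 and 234.7 CPM (−3.35 ± 0.47, edgeR adjusted p = 0.0059, and 0.0825 without Acta2GFP).

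Both major collagen IV chains were lower in cluster 1. Col4a1 stood at 183.2, 31.1, 49.4 and 24.1 CPM there and at 526, 411, 694 and 613 CPM in clusters 2 to 5 (−2.94 ± 0.61, 7.68-fold lower, edgeR adjusted p = 0.0434). Col4a2 stood at 104.6, 62.2, 45.7 and 68.95 CPM and 336, 218.3, 361 and 404 CPM (−2.20 ± 0.37, 4.59-fold lower, edgeR adjusted p = 0.016). No strain overlapped between the sides for either gene, yet 3 of the 4 omissions of a strain lifted the edgeR adjusted p of each over 0.05: Col4a1 at 0.165, 0.15 and 0.192 without Acta2GFP, Cspg4dsRED and PdgfrbGFP, and Col4a2 at 0.165, 0.08 and 0.0857 without Acta2GFP, C57BL6 and PdgfrbGFP. Without C57BL6, whose cluster 1 sum was the highest, the log2 fold change of Col4a1 was −4.07.

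Of the laminins, Lamc1 stood at 69.1, 12.3, 97.5 and 157.1 CPM in cluster 1 against 769.9, 661, 710.5 and 839 CPM (−3.19 ± 0.57, 9.12-fold lower, edgeR adjusted p = 0.0227, and 0.0835, 0.217 and 0.113 without Acta2GFP, C57BL6 and Cspg4dsRED). Lamc3 had 0 to 2 counts in each cluster 1 sum and 12.4, 4.801, 12.5 and 16.004 CPM in clusters 2 to 5 (edgeR adjusted p = 0.0438). At so few counts no fold is given, and the call was lost with strain as a replicate block (0.152), without a filter on low counts (0.156) and on leaving out any 1 strain (edgeR adjusted p of 0.131 to 0.26). Lamb1 narrowly missed the threshold. It stood at 45.3, 3.22, 1.23 and 81.97 CPM against 551, 519.8, 565 and 1027 CPM (−4.30 ± 0.95, edgeR adjusted p = 0.0528). Nid2 was similar, at 9.63, 0.248, 0 and 7.92 CPM against 99.8, 81.7, 157.8 and 168.4 CPM (edgeR adjusted p = 0.0532).

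The other main chains did not pass edgeR's test, while DESeq2 called Lama2, Lama4 and Hspg2 as lower (adjusted p = 0.0338, 0.0381 and 0.00934), with Lamb1, Nid2 and Col4a4, and Npnt as higher (0.000952). Lamb2 stood at 405, 258.02, 267.8 and 195.3 CPM in cluster 1 and at 225.7, 143.1, 312 and 383 CPM in clusters 2 to 5 (0.11 ± 0.36, edgeR adjusted p = 1), with overlap. Lama2 stood at 238.5, 134.4, 373 and 248.3 CPM and 642, 454, 516.8 and 689 CPM, without overlap, and did not pass the test (−1.24 ± 0.30, edgeR adjusted p = 0.073). Lama4 stood at 121.5, 29.1, 1.23 and 57.4 and 336, 232.6, 264.7 and 543 CPM (edgeR adjusted p = 0.187) and Hspg2 at 109.02, 51.04, 2.47 and 105.3 and 439.6, 401, 463 and 532 CPM (edgeR adjusted p = 0.0997). For both, every cluster 1 value was below every other fibroblast value. Npnt, named here after its values were seen, ranged from 1.23 to 81.3 CPM in cluster 1 and from 0.0932 to 1.35 CPM in clusters 2 to 5 (5.44 ± 1.67, edgeR adjusted p = 0.194).

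**Figure D5:**
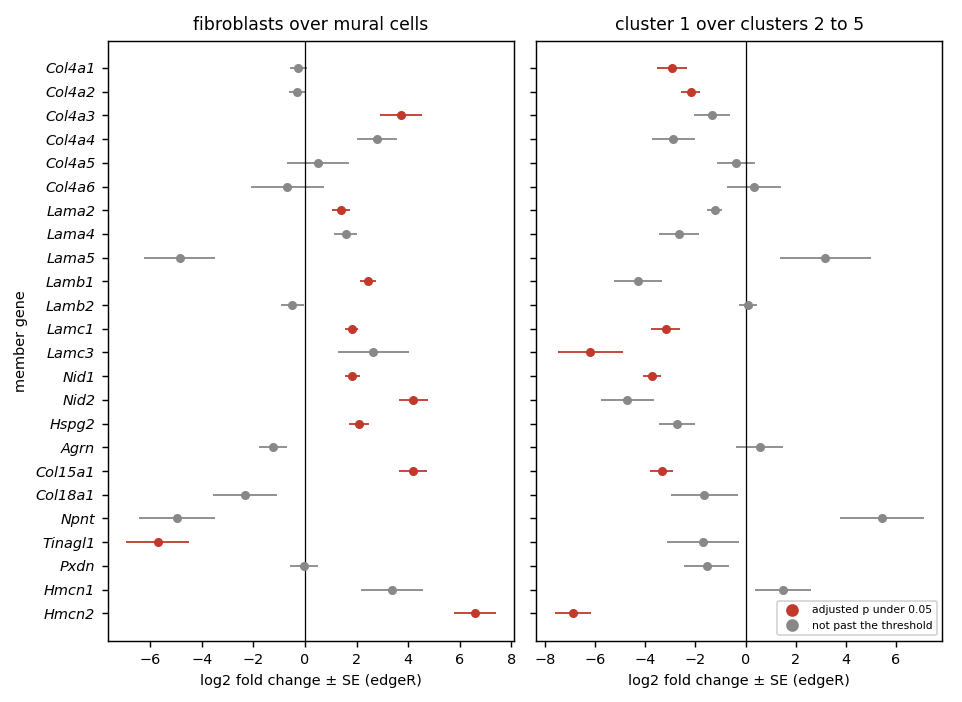
Log2 fold change with its SE (horizontal axes, edgeR on 4 strains per side) of each tested gene (rows), fibroblasts over mural cells on the left and cluster 1 over clusters 2 to 5 on the right, with red for adjusted p under 0.05. On the left 9 red points lie above 0 and Tinagl1 lies below at −5.70. On the right all 7 red points lie below 0, among them Lamc3, which has 0 to 2 counts in each cluster 1 sum. Hmcn2, also among them, has few counts there and could be tested through clusters 2 to 5.

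The mural clusters were compared next. Between cluster 8 (pericytes) and cluster 7 (smooth muscle cells), PdgfrbGFP, Cspg4dsRED and Acta2GFP were fitted on both sides, and C57BL6, with 1 cluster 7 cell, was left out of the fit. In these 3 strains, 1 of 22 tested genes was higher in cluster 8 by edgeR (0.0843% of all 11867 genes) and 0 were lower (0.11% of all). At an unadjusted p under 0.05 there were 7 (6.88% of all genes), and DESeq2 called 3, Lama2, Lamb1 and Col4a4, all higher in cluster 8 (3.44% of all its genes). The median log2 fold change of the 22 genes was 0.93, against 0.18 over all genes. The called gene was Lama2. In the fitted strains it stood at 220.8, 467 and 478 CPM in cluster 8 and at 6.87, 8.60 and 6.19 CPM in cluster 7 (5.68 ± 0.81, 51.1-fold, edgeR adjusted p = 0.0212). The cluster 7 sums were all low and none came near a cluster 8 sum, nor near the unfitted 297 CPM of cluster 8 in C57BL6. The adjusted p was 0.186 without Cspg4dsRED and 0.119 without PdgfrbGFP. The fibroblast markers (5 genes) moved the same way, at 780.0 to 4641 CPM in the 4 cluster 8 sums against 154.8 to 695 CPM in the 3 cluster 7 sums, with no overlap, and the part of fibroblast RNA in this and the following differences was not tested.

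Cluster 8 values lay wholly above those of cluster 7 in the 3 fitted strains for 6 further genes, so for 7 with Lama2, and wholly below for 0, where the shares of all genes tested were 9.08% and 5.91%. Among the 6, Col4a1 was at 757 ± 250.7 against 202.7 ± 58.3 CPM (SD, n = 3 on each side, edgeR adjusted p = 0.251), Lamb1 at 245.4 ± 176.7 against 17.9 ± 22.9 CPM (edgeR adjusted p = 0.288) and Nid1 at 457 ± 188.1 against 61.5 ± 53.2 CPM (edgeR adjusted p = 0.336). Lama5 was lower in cluster 8 in 2 of the 3 strains, at 10.4 ± 9.28 against 186.5 ± 161.3 CPM, with cluster 7 values of 0.491 CPM in PdgfrbGFP, 271.6 in Cspg4dsRED and 287.4 in Acta2GFP (edgeR adjusted p = 0.594). Tinagl1, highest in cluster 7, stood at 1137, 1632 and 1371 CPM there and at 1052, 1219 and 1268 CPM in cluster 8. The strain values overlapped and the gene did not pass the test (edgeR adjusted p = 0.989).

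Cluster 6 (39 cells, 33 of them from Cspg4dsRED and 3 each from C57BL6 and Acta2GFP) was compared with clusters 7 and 8 together in these 3 strains, since PdgfrbGFP has no cell in cluster 6. Fibroblast markers summed to 2709 to 13185 CPM in cluster 6, above the 324 to 2112 CPM of clusters 7 and 8 in all 4 strains, and pericyte markers to 105.3 to 272.3 CPM, below 3335 to 17515 CPM. Valve markers averaged 966 against 204.7 CPM, with overlap. The part of these in the differences was not tested. By edgeR, 0 of 22 tested genes passed the adjusted threshold, with 0.033% of all 12117 genes called. At an unadjusted p under 0.05 there were 2 (5.74% of all genes), and DESeq2 called 1 (2.99% of its genes). The median log2 fold change was 0.16, against −0.32 over all genes. The gene called by DESeq2 was Npnt, named here after its values were seen. It stood at 728 CPM in C57BL6, 739 in Cspg4dsRED and 713 in Acta2GFP in cluster 6, and at 29.04 ± 26.1 CPM in clusters 7 and 8 of the same strains (SD, n = 3). The 3 cluster 6 sums were close to each other (4.76 ± 1.13, edgeR adjusted p = 0.298, and 9.69e-07 with strain as a replicate block). Col18a1 stood at 328 CPM in C57BL6, 755 in Cspg4dsRED and 660.2 in Acta2GFP in cluster 6, against 103.7 ± 90.7 CPM over clusters 7 and 8 (2.63 ± 1.24, edgeR adjusted p = 0.893, and 0.00738 with strain as a replicate block). Strain values did not overlap for 4 of the 22 genes, with cluster 6 higher for 3 (3.28% of all genes tested) and lower for 1 (14.4%). Lama4 stood at 594 CPM in C57BL6, 174.3 in Cspg4dsRED and 310.4 in Acta2GFP, above the values of clusters 7 and 8 in these strains, which averaged 75.9 ± 72.6 CPM (edgeR adjusted p = 0.689).

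Among clusters 2 to 5, no gene of the whole table passed edgeR's adjusted threshold in any of the 4 comparisons of a cluster with the remaining ones (0.0% called in each). At an unadjusted p under 0.05, cluster 2 had 10 of its 23 tested basement membrane genes (4.62% of all genes), cluster 3 had 7 of 24 (6.05%), cluster 4 had 5 of 23 (4.75%) and cluster 5, with 2 strains, had 2 of 24 (3.89%). DESeq2 called 6 of these genes in cluster 2 (1.29% of all), 2 in cluster 3 (2.71%), 2 in cluster 4 (1.31%) and 0 in cluster 5 (0.874%). The median log2 fold changes of the tested basement membrane genes were 0.50, −0.56, −0.37 and −0.20 in clusters 2 to 5, against 0.0013, −0.13, 0.0049 and 0.0251 over all genes.

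The 6 called by DESeq2 in cluster 2 were Col4a1, Col4a2, Lama2, Lamb1, Lamc1 and Hspg2, all of them higher in cluster 2 in 4 of 4 strains and without overlap. No other tested basement membrane gene was without overlap in this comparison, where 1.4% of all genes tested were wholly higher in cluster 2 and 2.73% wholly lower. Col4a1 had a log2 fold change of 1.40 ± 0.19 (edgeR adjusted p = 0.065), from 362 ± 43.1 CPM in clusters 3 to 5 to 933 ± 175.1 CPM in cluster 2. Col4a2 had 1.38 ± 0.21, Lamb1 1.54 ± 0.33, Lama2 1.13 ± 0.23, Hspg2 0.91 ± 0.20 and Lamc1 0.66 ± 0.19. Schwann cell markers summed to a mean of 74.3 CPM in cluster 2 against 31.9 CPM in clusters 3 to 5, with overlap. Mural, smooth muscle, pericyte, endothelial, cardiomyocyte and valve markers averaged lower in cluster 2. In cluster 3, DESeq2 called Hmcn2, lower in 3 of 3 strains with a log2 fold change of −3.88 ± 0.87 (edgeR adjusted p = 0.364), and Lamc3. Lamc3 had 0, 0 and 2 counts in the fitted cluster 3 sums and could be tested through the other side, so nothing is read from its call. Pericyte markers summed to 209.4 to 294 CPM in cluster 3, above the 50.01 to 127.5 CPM of clusters 2, 4 and 5, mural markers to a mean of 177.2 against 64.5 CPM and smooth muscle markers to 823 against 234.5 CPM, the last 2 with overlap. In cluster 4, DESeq2 called Lamb1 (−1.67 ± 0.44, edgeR adjusted p = 0.375) and Nid2 (−1.88 ± 0.40, edgeR adjusted p = 0.208), both lower in 4 of 4 strains. Valve markers summed to 416 to 738 CPM in cluster 4, above the 174.1 to 278.5 CPM of clusters 2, 3 and 5. The part of such cells' RNA in the values of clusters 2, 3 and 4 was not tested. Without overlap, cluster 3 was higher for 1 gene and lower for 10 of 24 (2.64% and 13.6% of all genes tested), cluster 4 higher for 0 and lower for 3 of 23 (1.95% and 2.03%), and cluster 5, with 2 strains, higher for 4 and lower for 5 of 24 (12.3% and 19.8%). Each of these clusters is part of the other side in the remaining comparisons, so the values are not separate evidence.

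Genes that act with these components were read from 4 lists. Of 12 other basement membrane genes, 8 were tested between fibroblasts and mural cells, with 2 called higher and 1 lower in fibroblasts. For this and the other lists, the shares of all genes tested are the 3.47% called higher and 2.45% called lower given above. Smoc2, a calcium-binding matricellular protein, stood at 1718 ± 368 CPM in fibroblasts, against 34.02 ± 24.3 CPM in mural cells (SD, n = 4, log2 fold change 5.65 ± 0.63, edgeR adjusted p = 0.000735), and Vwa1, a perlecan-binding protein, at 347 ± 26.7 and 18.4 ± 22.4 CPM (4.25 ± 0.80, edgeR adjusted p = 0.0119). Egflam (pikachurin, a dystroglycan ligand) was lower in fibroblasts, at 6.07 ± 7.79 against 162.9 ± 64.9 CPM (−4.80 ± 1.06, edgeR adjusted p = 0.025). The median of the 8 was 1.24 on the log2 scale, where that of all genes was −0.02.

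Of 11 receptor genes, 9 were tested and 4 were called lower in fibroblasts (2.45% of all genes tested), of which Itga8 lost its call under alternatives given below. The other 5 did not pass the test, and the 9 log2 fold changes, all below 0, had a median of −2.07 against −0.02 over all genes. The laminin-binding integrin chain Itga7 stood at 5.47 ± 3.54 CPM in fibroblasts, against 553 ± 114.02 CPM in mural cells (−6.72 ± 0.50, edgeR adjusted p = 0.000112). Bcam, a receptor for laminins with the Lama5 chain, stood at 20.6 ± 11.6 and 699 ± 323 CPM (−5.10 ± 0.51, edgeR adjusted p = 0.00049), and the collagen-binding chain Itga1 at 24.1 ± 11.5 and 257.4 ± 91.4 CPM (−3.47 ± 0.43, edgeR adjusted p = 0.00139). Itga8 was called by edgeR (−4.05 ± 1.011, adjusted p = 0.043) but was lower in fibroblasts in 3 of 4 strains. Its log2 fold change and adjusted p were −3.09 and 0.273 with strain as a replicate block, −2.59 and 0.135 on CPM averaged over cells, and −2.80 and 0.178 without Cspg4dsRED.

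Of 14 collagen assembly genes, 1 was called higher in fibroblasts (3.47% of all genes tested) and 13 did not pass the test, with a median log2 fold change of 0.51. The called gene was P4hb, a subunit of prolyl hydroxylase (0.96 ± 0.24, edgeR adjusted p = 0.0429, and 0.0575 with strain as a replicate block, 0.0522 with DESeq2's size factors and 0.0599 without a filter). Of 3 genes that edit heparan sulfate, the sulfatases Sulf1 (2.72 ± 0.60, edgeR adjusted p = 0.0242) and Sulf2 (2.77 ± 0.53, edgeR adjusted p = 0.0127) were higher in fibroblasts, and the median of the 3 was 2.72 on the log2 scale. Without clusters 1 and 6 the log2 fold changes of Sulf1 and Sulf2 were 3.63 and 3.58. Leaving out 1 strain raised the adjusted p over 0.05 for Vwa1 (0.0566 and 0.067 without C57BL6 and Cspg4dsRED), Egflam (0.133 and 0.13 without C57BL6 and PdgfrbGFP), Itga8 (0.133 to 0.178 without C57BL6, Cspg4dsRED or Acta2GFP), P4hb (0.104 to 0.2 without any 1 of the 4), Sulf1 (0.0517 to 0.141 without C57BL6, PdgfrbGFP or Acta2GFP) and Sulf2 (0.0852 and 0.0599 without PdgfrbGFP and Cspg4dsRED). Vwa1 had a log2 fold change of 5.52 without Acta2GFP, 5.09 with strain as a replicate block and 4.90 on CPM averaged over cells, and Egflam one of −6.07 without Acta2GFP and −5.80 with the block. In cluster 1 against clusters 2 to 5, Smoc2 and Vwa1 were lower (edgeR adjusted p = 0.0313 and 0.0341) and Itga8 and P3h2, a prolyl 3-hydroxylase that acts on collagen IV, were higher (edgeR adjusted p = 0.0434 and 0.0302). In list order, 9, 9, 14 and 2 listed genes were tested there, and no other was called. Of all genes tested there, 0.773% were called lower and 0.561% higher. With strain as a replicate block, Smoc2, Vwa1 and Itga8 were at 0.121, 0.0717 and 0.128, and Itga8 was at 0.0889 without a filter. Each of these 4 cluster 1 calls was lost without C57BL6 (0.158 to 0.26) and without Acta2GFP (0.165 to 0.203), those of Smoc2, Itga8 and P3h2 also without PdgfrbGFP (0.128 to 0.192), and that of Vwa1 without Cspg4dsRED (0.0855). No gene of these lists was called between the mural clusters or among clusters 2 to 5.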

How the data were processed

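Whole-gene read counts of 1279 single heart cells were taken as the authors deposited them: raw counts per gene, with no normalization, made by trimming with Trim Galore, alignment with TopHat2 to GRCm38 (mm10) and counting with featureCounts, per the study's methods and the submitters' processing notes. The annotation release and the strand setting are not given in the sources used here. Of 46609 features, 92 were ERCC spike-ins (1.83% of counts), which were left out of library sizes and tests, leaving 46517 genes. No column was without a sample (0 columns not used). The libraries were single 50-base reads without molecular identifiers, so limits such as 3 counts cover counting error only. No doublet caller was run here, and the sort excluded doublets by scatter.

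Cells were grouped by the labels' strain and cluster. Counts were summed per strain and side for sides of at least 3 cells and tested with edgeR 4.0.16 (R 4.3.3) by TMM normalization, filterByExpr (minimum count 10) and the quasi-likelihood F test, with Benjamini-Hochberg adjustment over all genes tested. The SE is the absolute log2 fold change over the square root of F. Nothing in the labels says that strains are separate animals, so p-values measure the spread between these sums. CPM per kb used merged exon lengths of GENCODE M21, in which 46005 of the genes were found. Alternatives were DESeq2 1.42.0, its size factors, no filter, strain as a replicate block, limma 3.58.1 on log2(mean CPM + 1) with a mean of at least 1 CPM, fewer clusters and leaving out each strain. The scripts were tested on simulated data. Pairing was checked first, since the 2 sides of a strain come from the same plates. Their deviations from the group means correlated at 0.118 to 0.218 between fibroblasts and mural cells, over 0.1 in every strain. In cluster 5 the correlation was 0.169 in each strain. In cluster 1, clusters 8 and 7, and clusters 6, 2, 3 and 4 at least 1 strain was under 0.1. The main fits did not pair the sides, and the replicate block is given as the paired alternative.

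The members and lists were chosen with earlier results of these data known. Strain values are given for genes with edgeR adjusted p under 0.05 in any of the first 4 comparisons and for the main chains of each complex. Listed genes are given as counts, with values for those past the threshold between fibroblasts and mural cells; 1 listed gene, Ntn3, was not found in the table. Python 3.11.15 with numpy 2.4.6, scipy 1.17.1 and pandas 2.3.3 computed the levels.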

Additional observations from a re-analysis of the deposited data

Results flagged for a closer look

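In 5 of 72 groups of 4 strains, 1 strain stood apart from the rest (its gap to the nearest strain over the whole range was above Dixon's critical value). Chance gives about 1 such group in 20. Col4a1 in mural cells was at 1032 CPM in C57BL6, against 424 to 465 CPM in the other strains. In fibroblasts, PdgfrbGFP was the low strain for 3 genes: Col4a2 was at 200.9 CPM against 327 to 337 CPM, Hspg2 at 362 CPM against 428 to 439 CPM and Lamc3 at 4.28 CPM against 11.6 to 12.5 CPM. Lamb1 in clusters 2 to 5 was at 1027 CPM in Acta2GFP, against 519.8 to 565 CPM.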

How the results depend on the processing

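No called gene reversed its direction under any alternative. Between fibroblasts and mural cells, DESeq2 called 15 genes in place of 10, and leaving out 1 strain gave 7 to 10, of which 6 to 8 were among the 10. For cluster 1 against clusters 2 to 5, DESeq2 called 14 in place of 7 and leaving out 1 strain gave 2 to 5, of which 2 to 4 were among the 7. For cluster 8 against cluster 7, DESeq2 called 3 in place of 1 and leaving out 1 strain gave 0 to 2, with Lama2 among them in 1 of 3 omissions. For cluster 6, where edgeR called 0, DESeq2 called 1, the fit without a filter 1, the fit with strain as a replicate block 2, and leaving out 1 strain 0 to 1. In clusters 2, 3 and 4, DESeq2 called 6, 2 and 2 in place of 0. The replicate block gave 10 calls between fibroblasts and mural cells, 9 of them among the 10, and 6 in cluster 1, all among the 7, and it changed the calls of Col4a3, Lama4, Lamc3, Npnt and Col18a1 as given beside each. The other counts stayed within 1.5 times of the reported ones. Of the levels by gene and cluster, 10 moved by over 1 SD when only sums of at least 10 cells were used, and 15 when CPM was averaged over cells. The causes were not tested. Leaving out a strain was not run for cluster 5, which has 2 strains. Sums of 3 cells limit cluster 1 of Cspg4dsRED and cluster 6 of C57BL6 and Acta2GFP.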
